A study of Homo sapiens with 40 samples.

Results

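The comparison described here sets 4 libraries from RKO cells in which a knockout of IGF2BP3 was induced against 4 libraries from the same cells left uninduced. These 8 libraries were taken by their labels from the 40 of the series, which fall into 10 groups of 4. RKO is an established human colorectal carcinoma line with intact p53. All 8 libraries come from a line that carries a doxycycline-inducible Cas9 with GFP and a lentiviral vector with a pair of guide RNAs against IGF2BP3 and a blue fluorescent protein (sgIGF2BP3 cells). The Dox group received doxycycline at 250 ng/mL for 72 hours to switch on Cas9, and the DMSO group is the same line, guides and transgene included, without induction. In each group s4U, a labelling nucleoside, was added at 250 µM for 2 hours, and the deposited counts do not separate newly made from older RNA. The line is a sorted pool of transduced cells and not a clone, so edited, unedited and partly edited alleles contribute to each library. Per the labels, 1 well was used per condition and the experiment was run in quadruplicate. Whether the 4 wells were separate cultures is not given, so p-values measure the spread between these libraries, which may be technical.

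Other groups serve here only for comparison. They are the DMSO and Dox groups of 2 further lines, whose guides cut AAVS1, a control locus (sgAAVS1), or the paralog IGF2BP2 (sgIGF2BP2), and sgIGF2BP3 cells given an siRNA pool against IGF2BP3 (siIGF2BP3) or a non-targeting siRNA (siControl) at 75 nM for 48 hours. No library of these groups is shared with the 8 described.

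IGF2BP3 is an RNA-binding protein of the insulin-like growth factor 2 mRNA-binding protein family. It is made in the embryo, is nearly silent in most adult tissues and returns in many carcinomas, where it has been reported to bind and stabilize mRNAs. Cas9 cuts DNA where a guide matches beside a PAM motif, and the repair of a cut in coding sequence often shifts the reading frame. mRNA made from such an allele can be degraded by nonsense-mediated decay, and a DNA break can itself activate p53, a transcription factor whose targets slow division, repair DNA or start apoptosis.

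The 2 guides are shown because they fix where IGF2BP3 was cut. Each is written 5′ to 3′ with the 3 bases that follow it on the same strand, and the capitals mark this PAM. Both read antisense to the transcript.
guide 1: tggcaccgactgatagagctGGG
guide 2: gaagatactttctaggtccgAGG
IGF2BP3 (ENSG00000136231) spans chr7:23310209-23470467 in GRCh38 and is transcribed from the reverse strand. Guide 1 matches chr7:23319200-23319219, coding sequence of exon 11 of 15, and would cut near codon 414 of 579. Guide 2 matches chr7:23470045-23470064, coding sequence of exon 1, near codon 17. The sites lie 150.8 kb apart, and among annotated transcripts only those of IGF2BP3 hold an exact match to either guide.

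IGF2BP3 mRNA was at 180, 181, 175 and 185 CPM (counts scaled to library size by the trimmed mean of M-values) in DMSO replicates 1 to 4 and at 56.1, 58.5, 59.1 and 51.1 CPM in the Dox replicates. Every Dox library lay below every DMSO library, and the highest Dox value was 33.7% of the lowest DMSO value. Raw counts fell from between 2479 and 3067 to between 638 and 743 a library. The paralog IGF2BP2 overlapped between the groups, with 94.4 ± 2.43 CPM under DMSO and 97.6 ± 5.09 CPM under Dox (SD, n = 4 each), and was not called. IGF2BP1 had at most 1 count in a library and was not tested. The counts cannot tell edited from unedited IGF2BP3 mRNA, and the protein was not measured here.

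**Figure D1:**
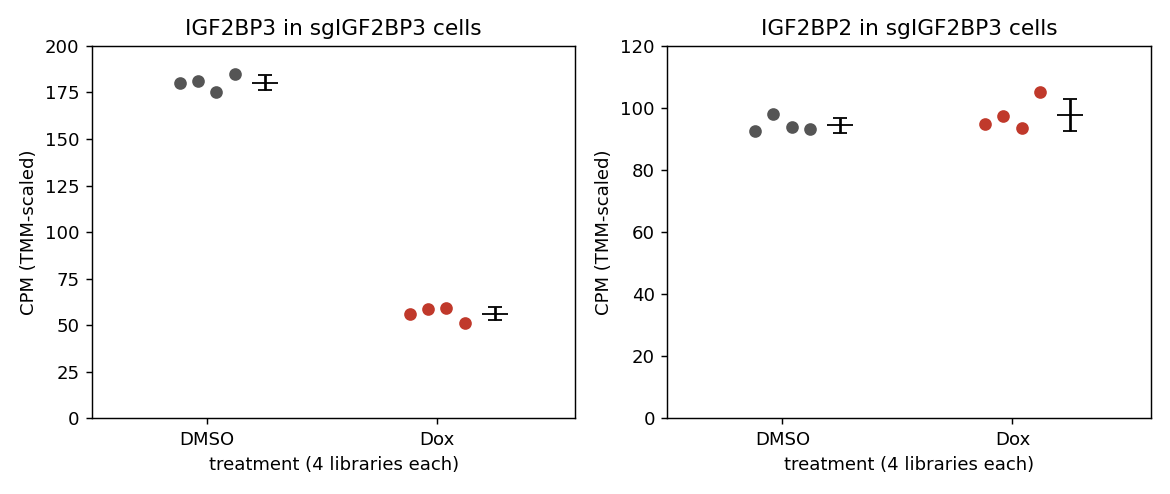
Level of IGF2BP3 (left) and IGF2BP2 (right) in CPM in each of the 4 DMSO and 4 Dox libraries of sgIGF2BP3 cells; the bar beside each group is the mean ± SD. IGF2BP3 fell to between 51.1 and 59.1 CPM in the Dox libraries, and IGF2BP2 overlapped between the groups.

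Total counts were 1.54e+07 ± 1.29e+06 with DMSO and 1.25e+07 ± 1.24e+06 with Dox (SD, n = 4 each; exact two-sided permutation p = 0.0286, the smallest this design allows). The share of mitochondrially encoded mRNA was 8.24% and 8.35% (exact permutation p = 0.514). Dox replicate 4 stood apart from the other Dox libraries. Its genes of low transcript GC content lay lower and those of high GC content higher. In the decile of genes with the lowest GC content its median log2 difference from DMSO was −0.177 and in the highest decile 0.119, whereas the other Dox libraries lay between −0.055 and −0.02 and between 0.019 and 0.041. The main counts of calls are given with and without it. Of 16 colorectal epithelial markers, 5 were expressed enough to test, and none was called by edgeR (0 also at an unadjusted p under 0.05 and by DESeq2), and their summed level was 296 to 308 CPM with DMSO and 308 to 317 CPM with Dox. Of 16 fibroblast, endothelial and leukocyte markers only CD68 was tested, and their sum stayed between 2.12 and 3.45 CPM in all 8 libraries.

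Induction of the IGF2BP3 knockout changed few genes and by small amounts. In edgeR's quasi-likelihood test, a gene was called at a Benjamini-Hochberg adjusted p under 0.05. Of 11428 genes tested, 302 (2.64%) were called, 187 higher (1.64%) and 115 lower (1.01%). Only 5 of them changed at least 2-fold and 22 at least 1.5-fold, 18 higher and 4 lower. The median change was 0.24 on the log2 scale among the higher calls and −0.19 among the lower. The 4 Dox libraries lay wholly on 1 side of the 4 DMSO libraries for 1183 genes (10.4%), above them for 658 (5.76%) and below them for 525 (4.59%). These include 267 of the 302 called.

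The count rested on single libraries. Without Dox replicate 4, 108 genes were called (0.942%), 79 higher (0.689%) and 29 lower (0.253%), and 103 of these were among the 302. Leaving out DMSO replicate 4, DMSO replicate 3 or Dox replicate 2 gave 151, 162 and 172 calls. The genes called higher had a median transcript GC content of 58.5% and those called lower 40.5%, against 48.3% over all tested genes. Without Dox replicate 4 these medians were 56.3% and 47.5%. With an offset for GC content and length in each library, 276 genes were called, 176 of the 302 among them, and the medians were 54.6% and 54.2%.

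The largest rises by rule, beside the p53 and contractile genes described next, were those of IER5L, MYOF, CELSR3, S100A2, FSTL3, FOXD1 and CUBN. IER5L, a relative of the immediate early gene IER5, stood at 41.2, 33.3, 34.8 and 40.2 CPM with DMSO and at 83.5, 74.1, 78.8 and 80.6 CPM with Dox. The groups were far apart, and the log2 fold change was 1.08 (SE 0.062, edgeR adjusted p = 6.52e-23). S100A2, a calcium-binding protein of epithelia, rose from between 2090 and 2400 CPM to between 3360 and 3630 CPM (0.63, SE 0.053). FOXD1, a forkhead transcription factor, rose from between 119 and 151 to between 195 and 215 CPM (0.61, SE 0.07). FSTL3, a secreted binder of activin, rose from between 6.71 and 7.72 to between 10.2 and 12.9 CPM (0.62, SE 0.1). The calls of FOXD1, S100A2 and IER5L held in all 18 alternative fits, and that of FSTL3 in all but the one that tests for a change beyond 1.2-fold. CELSR3, an adhesion receptor of the cadherin family (0.64), CUBN, an endocytic receptor (0.56), and MYOF, a membrane repair protein (0.71), were lower expressed, with at most 7.95 CPM in any of the 8 libraries. All 3 lost their calls without Dox replicate 4. With Dox in sgAAVS1 and sgIGF2BP2 cells, IER5L rose by 1.23 and 0.9, S100A2 by 0.64 and 0.49, and FSTL3 by 0.48 and 0.5. CUBN rose there by 0.78 and 0.7, MYOF by 0.84 and 1.15, and CELSR3 by 0.1 (not called) and 0.53. FOXD1 changed by −0.14 (not called) and 0.70 there. Its Dox effect differed from that in sgAAVS1 cells by 0.75 (edgeR adjusted p = 3.71e-07) and not from that in sgIGF2BP2 cells. For none of the other genes named in this paragraph did the Dox effect differ from that in either line by edgeR's test.

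**Figure D2:**
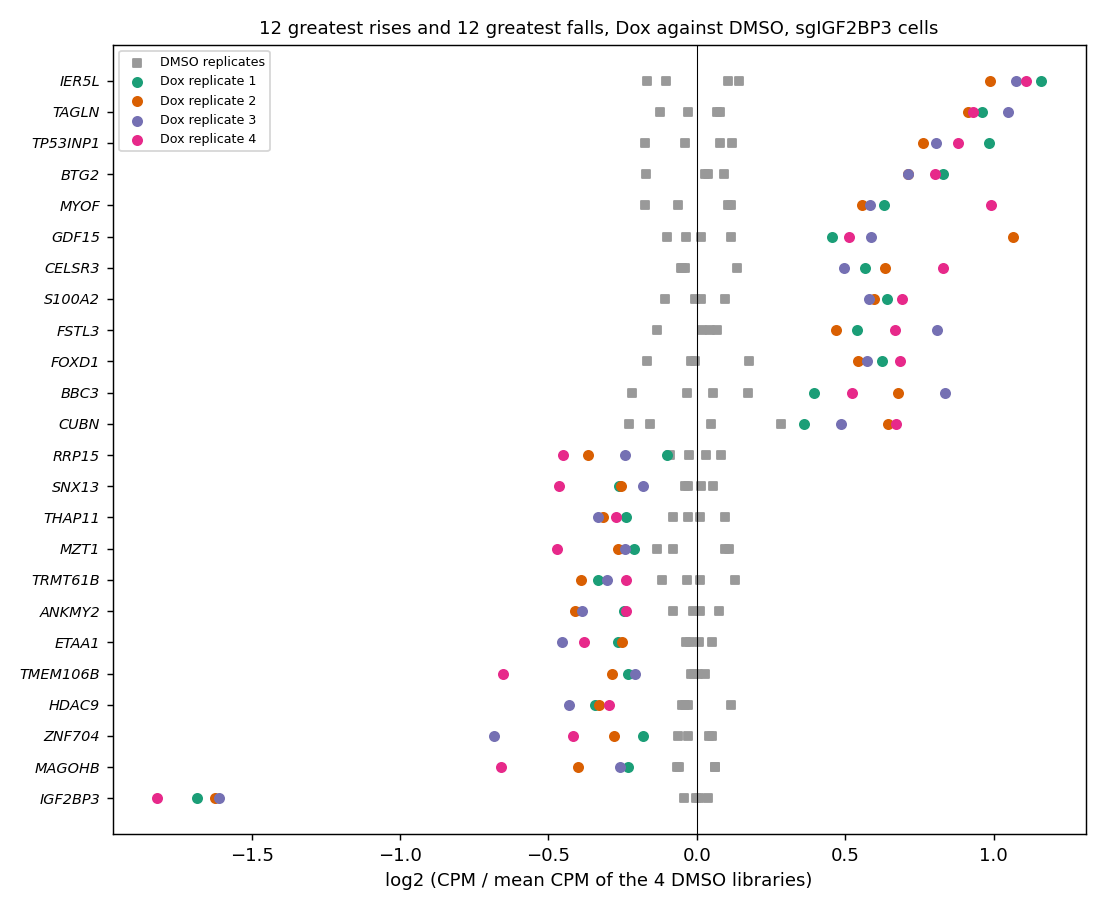
log2 ratio of each library's CPM to the mean of the 4 DMSO libraries (horizontal axis) for the 12 greatest rises and 12 greatest falls by rule; grey squares are DMSO libraries and coloured circles Dox libraries. The Dox circles of IER5L, TAGLN and IGF2BP3 lie well away from the squares, while for most falls they lie close beside them.

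Genes activated by p53 were called more often than those of any other of the 21 lists examined. Of 34 tested, 13 were called higher and 1 lower, beside 1.64% and 1.01% of all genes. Their median log2 fold change was 0.18, against 0.0027 over all genes, and 33 of the 34 had a positive value. Without Dox replicate 4 the count was again 13 higher and 1 lower, with a median of 0.21, and with the GC and length offset it was 16 higher and 1 lower.

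Feedback and arrest genes were among the rises. BTG2, an antiproliferative factor, was at 13.8, 11.5, 13.3 and 13.2 CPM with DMSO and at 23.0, 21.2, 21.2 and 22.6 CPM with Dox. Its log2 fold change was 0.77 (SE 0.08, edgeR adjusted p = 5.38e-11), with a wide gap between the groups. TP53INP1, a p53 cofactor and target, rose from between 4.45 and 5.45 to between 8.51 and 9.94 CPM (0.85, SE 0.118). MDM2, the ubiquitin ligase that limits p53, rose by only 0.18 (SE 0.047), and the kinase PLK3 by 0.43. CDKN1A, which encodes the cell cycle inhibitor p21, was not called.

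Among genes of apoptosis, BBC3, which encodes the BCL2 antagonist PUMA, was at 11.7, 11, 9.68 and 12.7 CPM with DMSO and at 14.8, 18.0, 20.1 and 16.2 CPM with Dox. The groups did not overlap, and the log2 fold change was 0.61 (SE 0.105, edgeR adjusted p = 6.23e-05). The death receptors FAS (0.31) and TNFRSF10B (0.19) and the pore former BAX (0.23) also rose. GDF15, a secreted stress cytokine, rose by 0.68, but one library was well above the others. It stood at 3.65 to 4.24 CPM with DMSO and at 5.36, 8.19, 5.88 and 5.58 CPM with Dox, and its call was lost without Dox replicate 2. FDXR, a mitochondrial reductase (0.38), DDB2, a DNA damage sensor (0.27), PHLDA3, an AKT inhibitor (0.23), and RPS27L, a ribosomal protein relative (0.25), complete the 13.

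DDB2 was chosen for display after its values were seen, because it alone among the listed genes holds 2 p53 half-sites near its start. RefSeq promoter windows of 250 bases before to 50 bases after each start (GRCh38.p14) were searched on both strands for a pair of half-sites. Such a pair was found in 10 of 35116 windows (0.0285%), and among tested genes only in those of DDB2 and DYNC2H1. The site of DDB2 lies at chr11:47214979-47214999, forward strand, just past the annotated start.
DDB2 half-site pair: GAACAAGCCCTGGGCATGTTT
All of it is in capitals because the whole stretch is the match. A match is a description of sequence, and binding was not measured.

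The same list rose by a similar median in sgAAVS1 cells and by a larger one in sgIGF2BP2 cells. With Dox, 18 of the 34 were called higher and none lower in sgAAVS1 cells (median 0.19), beside 7.25% and 8.68% of all genes, and 30 higher and none lower in sgIGF2BP2 cells (median 0.47), beside 10.0% and 10.4%. Tested as a difference of Dox effects, 14 of the 34 rose less in sgIGF2BP3 than in sgIGF2BP2 cells and none rose more, beside 1.23% and 1.69% of all genes. BTG2 differed by −0.60 (edgeR adjusted p = 0.000305), BBC3 by −0.60 (edgeR adjusted p = 0.0085) and RPS27L by −0.49 (edgeR adjusted p = 2.61e-05). Against sgAAVS1 cells, 2 members lay higher and 1 lower, beside 4.53% and 3.25% of all genes. After siIGF2BP3 in sgIGF2BP3 cells, 2 of the 34 were called higher and 2 lower, beside 0.936% and 1.40% of all genes.

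**Figure D3:**
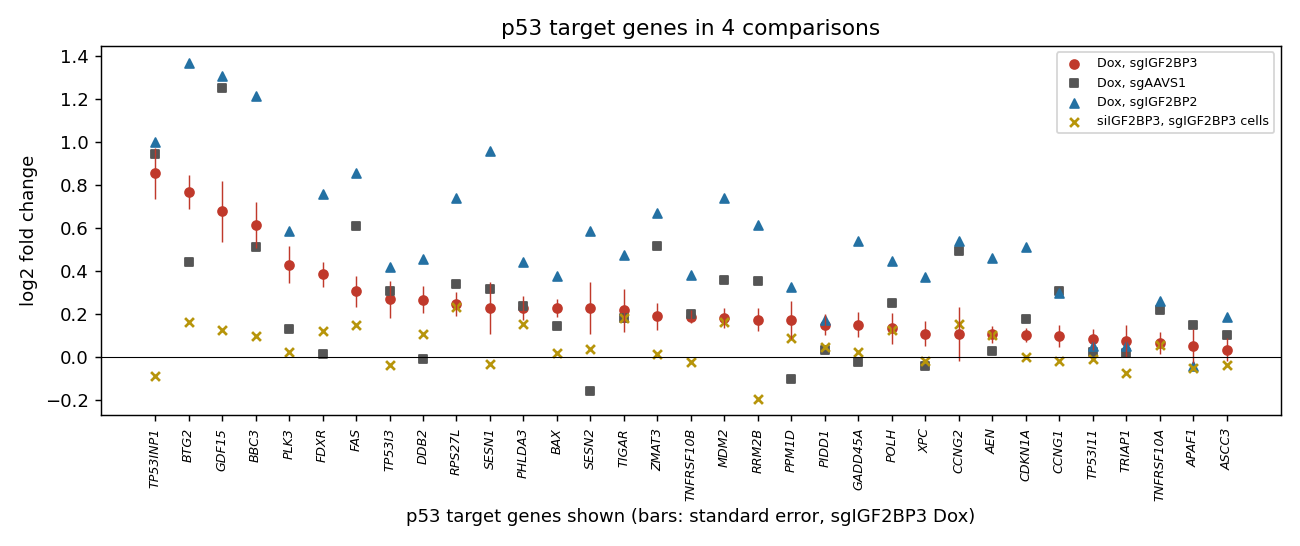
log2 fold change (vertical axis) of 33 of the 34 tested p53 target genes, ordered by their value in sgIGF2BP3 cells, for Dox in 3 lines and for siIGF2BP3; bars are standard errors of the sgIGF2BP3 Dox values. The sgIGF2BP2 triangles lie above the sgIGF2BP3 circles for most genes, and the siRNA crosses lie near 0, with a median of 0.031.

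Contractile and actin cytoskeleton genes, which serum response factor (SRF) controls, came next. Of 26 tested, 5 were called higher and 1 lower, beside 1.64% and 1.01% of all genes. Their median was 0.073, and without Dox replicate 4 the counts were 4 and 1. TAGLN, an actin-bundling protein of smooth muscle, was at 15.4, 15.3, 13.4 and 14.3 CPM with DMSO and at 28.4, 27.5, 30.2 and 27.8 CPM with Dox. Its log2 fold change was 0.96 (SE 0.076, edgeR adjusted p = 8.36e-16) and the groups were far apart. TAGLN shares exon bases with PCSK7 on the opposite strand, so its counts are uncertain if strand was not used. CALD1, which binds actin and myosin, rose from between 34.5 and 38.2 to between 50.9 and 53.7 CPM (0.54, SE 0.054). MYL9, a myosin light chain, rose from between 62.1 and 71.6 to between 81.9 and 88.1 CPM (0.35, SE 0.048). TAGLN2 rose by 0.18.

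The cytoplasmic actins moved apart. ACTG1 was at 4720, 4560, 4610 and 4590 CPM with DMSO and at 4890, 4940, 4890 and 5140 CPM with Dox, a log2 fold change of 0.10 (SE 0.03), and this call was lost in 11 of 18 alternatives. ACTB fell from between 5960 and 6370 to between 5170 and 5710 CPM (−0.17, SE 0.034). ACTB lies in the outer part of chromosome 7p described below. ACTG1 is 1 of 5 genes called higher whose promoter window holds a CArG box, the element SRF binds. These 5 of 187 (2.67%) compare with 142 of 11428 tested genes (1.24%) and 1.29% of all windows, and none of the 115 genes called lower has one. Of the 26 contractile and actin genes tested, 8 (30.8%) have a CArG box in the window, and ACTG1 is the 1 of these that was called. The windows of TAGLN, CALD1 and MYL9 hold no match. In ACTG1 it lies on the gene's strand from 94 to 85 bases before the start, and the window chr17:81512874-81512903 is shown with the box in capitals, read along the reverse strand.
ACTG1 promoter: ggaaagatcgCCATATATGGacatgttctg
The other genes called higher with the box were AKAP12, EIF6, FSTL3 and MYADM.

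In the other lines the 26 contractile genes moved both ways with Dox. In sgAAVS1 cells 7 were called higher and 5 lower (median −0.003), where 7.25% and 8.68% of all genes were called, and in sgIGF2BP2 cells 5 higher and 6 lower (median −0.021), where 10.0% and 10.4% were. TAGLN rose by 0.99 in sgAAVS1 and by 0.28 in sgIGF2BP2 cells, and the effect in sgIGF2BP3 cells was larger than in sgIGF2BP2 cells by 0.68 (edgeR adjusted p = 4.9e-05). The difference from sgAAVS1 cells did not pass the test (−0.032, edgeR adjusted p = 0.899). CALD1 rose by 0.79 and 0.28 in those lines and differed from both, by −0.25 from sgAAVS1 and by 0.27 from sgIGF2BP2 cells (edgeR adjusted p = 0.0328 and 0.0375). ACTG1 fell in both other lines, by 0.22 and 0.13.

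Signalling genes rose in small numbers, where 1.64% of all genes were called higher. Of 28 immediate early genes, which are switched on within minutes of a growth signal, 4 (14.3%) were called higher and none lower. Besides IER5L these were the transcription factor KLF6, the ERK phosphatase DUSP1 and the AP-1 subunit FOSB (0.24). KLF6 was at 17.1, 16.1, 17.6 and 19.1 CPM with DMSO and at 24.1, 23.1, 23.4 and 25.3 CPM with Dox (0.46, SE 0.073, edgeR adjusted p = 1.59e-05), with no overlap. DUSP1 rose from between 17.5 and 21.8 to between 23.4 and 26.1 CPM (0.35, SE 0.078). Of 23 outputs of ERK signalling, 2 (8.7%) were called higher and none lower. PLAU, the urokinase plasminogen activator, rose from between 11.2 and 14.2 to between 14.7 and 19.8 CPM (0.44, SE 0.087). IL11, a cytokine, rose by 0.29, a call lost in 10 of 18 alternatives. Of 17 YAP/TEAD targets, MYOF and the matrix protein CCN1 (0.20) were called higher (11.8%) and none lower. Of 17 NF-kB feedback genes and cytokines, BIRC3, an inhibitor of apoptosis (0.48), and TNFAIP3, a ubiquitin editor (0.53), were called higher (11.8%), and the TNFAIP3 call was lost in 8 of 17 alternatives. Of 28 interferon response genes, IFIT3 was called higher (0.73, with at most 3.78 CPM in any of the 8 libraries), a call lost in 6 of 17 alternatives. This share of 3.57% is near that of all genes, and the list's median was 0.12.

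In sgAAVS1 cells Dox gave higher calls for 8 immediate early, 2 ERK, 6 YAP/TEAD, 5 NF-kB and 7 interferon genes of these lists. Lower calls there were 4, 10, 2, 0 and 0, where 7.25% of all genes were called higher and 8.68% lower. BIRC3 (0.86), IL11 (0.77), CCN1 (0.41) and IFIT3 (0.60) were called higher there. IL11 and CCN1 rose less in sgIGF2BP3 cells by the test, and BIRC3 and IFIT3 did not differ. DUSP1, PLAU, KLF6 and FOXD1 were among the named rises whose Dox effect was more positive than in control-guide cells. DUSP1 changed by −0.44 and PLAU by −0.38 in sgAAVS1 cells, against rises of 0.35 and 0.44 here. The differences were 0.79 for DUSP1 (edgeR adjusted p = 1.42e-06) and 0.82 for PLAU (edgeR adjusted p = 1.28e-05). KLF6 (difference 0.51, edgeR adjusted p = 0.000858) and FOXD1 (0.75, edgeR adjusted p = 3.71e-07) were not called in sgAAVS1 cells. All 4 were called higher with Dox in sgIGF2BP2 cells, by 0.35, 0.80, 0.42 and 0.70 in the order DUSP1, PLAU, KLF6 and FOXD1, and none of the 4 differed between those cells and sgIGF2BP3 cells by the test.

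Of the 115 lower calls, 20 lay in the outer part of chromosome 7p, from IGF2BP3 to the end of the arm. This stretch holds 80 tested genes, so 25% of them were called lower, against 0.799% of genes on other chromosomes. Their median log2 fold change was −0.15, which is 90.1% of the DMSO level, and 70 of the 80 had a negative value. The median was negative in each Dox library, at −0.136, −0.156, −0.154 and −0.101. The count was 13 without Dox replicate 4 and 30 with the GC and length offset. The same genes had a Dox median of −0.001 in the sgAAVS1 line and of 0.031 in the sgIGF2BP2 line, and a median of −0.014 after siIGF2BP3.

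Named genes of this stretch show the size of the fall. HDAC9, a histone deacetylase, was at 16.5, 14.7, 14.8 and 14.9 CPM with DMSO and at 12, 12.1, 11.3 and 12.4 CPM with Dox (−0.35, SE 0.085, edgeR adjusted p = 0.0108), with no overlap, and the call was lost without DMSO replicate 1, the highest library. TMEM106B, a lysosomal membrane protein, fell from between 32.7 and 33.8 to between 21.1 and 28.7 CPM (−0.34), and its call was lost without Dox replicate 4, the lowest library. ANKMY2 (−0.31) and SNX13, a sorting nexin (−0.29), fell as well, and SNX13 lost its call without Dox replicate 4. HDAC9 rose in the other lines, by 0.49 and 0.57, so that its Dox effect differed by −0.84 from sgAAVS1 and by −0.92 from sgIGF2BP2 cells. On the far side of IGF2BP3, 1 of 51 genes within 15 Mb was called lower, with a median of −0.071, and at 15 to 40 Mb 2 of 49 (median −0.078). More than 40 Mb away, 4 of 362 were called lower and the median was −0.01.

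The tested genes next to IGF2BP3 were not called. On the side of the 7p end these are KLHL7 (−0.016), NUP42 (−0.25) and MALSU1 (−0.05), and on the other side TRA2A (−0.16), CCDC126 (0.01) and FAM221A (−0.34). MALSU1 shares exon bases with IGF2BP3 on the opposite strand. NUP42 passed the test in 3 of 18 alternatives and TRA2A in 5 of 18. DNA copy number, which the counts do not give, was not measured here.

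The falls named by rule outside chromosome 7 were at most 0.39 on the log2 scale. Of the 4 lower calls of at least 1.5-fold, only IGF2BP3 lies on chromosome 7. The others did not meet the rule's limits on level or overlap and are not reported here. MAGOHB, a core subunit of the exon junction complex that is laid on spliced mRNA, was at 18.5, 20.1, 18.4 and 20.1 CPM with DMSO and at 16.4, 14.6, 16.1 and 12.2 CPM with Dox. It fell by 0.39 on the log2 scale (SE 0.087, edgeR adjusted p = 0.00463), with Dox replicate 4 the lowest, and the call was lost without that library. THAP11, a transcription factor, fell from between 40.5 and 45.8 to between 34.0 and 36.3 CPM (−0.29, SE 0.06) and kept its call in all but the test beyond a 1.2-fold change. THAP11 fell further in the other lines, by 0.42 and 0.47, though the differences did not pass the test. ZNF704 (−0.38), ETAA1, an activator of the ATR kinase (−0.34), TRMT61B, a mitochondrial RNA methyltransferase (−0.31), and RRP15, a ribosome assembly factor (−0.29), each lost the call in 10 to 13 of 18 alternatives. MZT1, of the gamma-tubulin complex (−0.30), lost it in 7.

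Genes of the dividing cell leaned lower with few calls. Of 36 G1/S and replication genes, none was called higher and 3 lower (8.33%), beside 1.01% of all genes called lower. Their median was −0.062, and without Dox replicate 4 only 1 was called. RRM2, a subunit of ribonucleotide reductase, fell from between 422 and 439 to between 391 and 402 CPM (−0.13, SE 0.03, edgeR adjusted p = 0.00786), and CCNA2, cyclin A2 (−0.18), and PCNA, the replication clamp (−0.13), were the others. Of 34 G2/M genes, the mitotic motor KIF11 (−0.15) and the cytokinesis factor ECT2 (−0.19) were called lower (5.88%) and none higher. Of 40 DNA repair genes, RBBP8, which encodes the end-resection factor CtIP, was called lower (−0.23), a share of 2.5%. No G2/M gene was called without Dox replicate 4 or DMSO replicate 2, 3 or 4, or with an offset for GC content and transcript length. No repair gene was called without Dox replicate 4 or DMSO replicate 3, or with that offset. In sgAAVS1 cells 17, 7 and 8 genes of these lists were called lower with Dox, where 8.68% of all genes were. In sgIGF2BP2 cells 32, 26 and 21 were, where 10.4% of all genes were. As a difference from sgAAVS1 cells, 5 G1/S, 2 G2/M and 4 repair genes lay higher and none lower, beside 4.53% of all genes higher. As a difference from sgIGF2BP2 cells, 18, 3 and 8 lay higher and none lower, beside 1.69% of all genes higher.

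Few mRNAs reported as IGF2BP targets were called, though the share called lower was above that of all genes. Of 24 tested, none was called higher and 2 lower (8.33%), beside 1.64% and 1.01% of all genes. ACTB was 1 of the 2, and it changed by −0.11 and −0.14 with Dox in sgAAVS1 and sgIGF2BP2 cells. The list median was −0.035, and 7 of the 24 had a positive value. With the GC and length offset 2 were called higher and 2 lower, and the median was −0.061. With Dox in sgAAVS1 cells, 3 of the 24 were called higher and 8 lower, beside 7.25% and 8.68% of all genes. In sgIGF2BP2 cells the counts were 4 and 9, beside 10.0% and 10.4%. After siIGF2BP3, 1 was called higher and none lower. Of 27 RNA-binding partners and decay factors, SYNCRIP, an mRNA-binding hnRNP (−0.15), and G3BP2, a stress granule protein (−0.15), were called lower (7.41%) and none higher. SYNCRIP lost its call in 4 of 18 alternatives, Dox replicate 4 or DMSO replicate 4 left out and the GC and length offset among them, and G3BP2 lost its call in 9 of 18. With that offset, or without DMSO replicate 4, none of the 27 was called. In sgAAVS1 cells Dox gave 11 lower calls among the 27 and none higher, and in sgIGF2BP2 cells 9 lower and 1 higher. After siIGF2BP3, 2 were called higher and none lower. MAGOHB was the only one of 19 exon junction and decay genes called (5.26%).

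No gene was called among 34 unfolded protein response genes (median 0.001), 28 integrated stress response genes (median 0.006) or 13 mitochondrially encoded mRNAs (median 0.037) in edgeR's test. At an unadjusted p under 0.05 the counts were 5, 5 and 1, and DESeq2 called 1, 0 and 0. Without a filter on low counts, 1 integrated stress response gene was called higher and 1 lower, and 2 mitochondrial mRNAs higher. The fit to the 8 libraries alone called 1 and 2 of these lists higher. Leaving out 1 library gave at most 1 call in either list. ASNS, of the integrated stress response list, had a log2 fold change of −1.35 but was not called (edgeR adjusted p = 0.059). The most abundant of the unfolded protein response genes, the chaperone CALR, had a log2 fold change of 0.083 (edgeR adjusted p = 0.132) and passed in DESeq2 only. Of 15 reported substrates of decay by IRE1, a sensor of misfolded protein, 2 were called higher (13.3%), beside 1.64% of all genes. These were TNFRSF10B and ANGPTL4, a lipase inhibitor (0.22). Of 28 glycolysis and hypoxia genes, PKM, pyruvate kinase (0.18), ALDOC, an aldolase (0.21), and NDRG1 (0.19) were called higher (10.7%). Of 26 cholesterol synthesis genes, IDI1, an isomerase of the pathway, was called lower (−0.20), a share of 3.85% beside 1.01% of all genes. The IDI1 call was lost without Dox replicate 4. Without that library 1 gene each of the YAP/TEAD, ERK, NF-kB, glycolysis and IGF2BP target lists was called, and 4 immediate early genes.

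Many of the called genes were called in the same direction by Dox in the other lines, where 2326 (20.4%, sgIGF2BP2) and 1820 (15.9%, sgAAVS1) of all genes were called. Of the 187 rises, 139 were also higher in sgIGF2BP2 cells (74.3% of the 187 and 12.2% of the 1143 there) and 66 in sgAAVS1 cells (35.3% and 7.97% of the 828 there). Of the 115 falls, 53 were also lower in sgIGF2BP2 cells (46.1% and 4.48% of 1183) and 21 in sgAAVS1 cells (18.3% and 2.12% of 992). In both other lines 57 of the rises and 16 of the falls were shared. In neither were 37 rises and 49 falls, which alone does not show that their effects differ. Without Dox replicate 4, a count added after the data were seen, 66 of 79 rises (83.5%, and 5.77% of the 1143) and 13 of 29 falls (44.8%, and 1.1% of the 1183) were shared with sgIGF2BP2 cells. With sgAAVS1 cells 45 rises (57.0%, and 5.43% of the 828) and 13 falls (44.8%, and 1.31% of the 992) were shared.

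The differences were therefore tested. Against sgAAVS1 cells the Dox effect differed for 889 genes (7.78%), which include 49 of the 187 rises and 44 of the 115 falls. The count was 428 when Dox replicate 4 of sgIGF2BP3 cells was left out. Leaving out DMSO replicate 2 or 4 of sgAAVS1 cells gave 540 and 1415. With the GC and length offset the count was 378. In the decile of genes with the lowest GC content the median Dox effect was −0.072 in sgIGF2BP3, 0.07 in sgAAVS1 and −0.022 in sgIGF2BP2 cells, and in the highest decile it was 0.052, −0.062 and 0.036. Against sgIGF2BP2 cells it differed for 333 genes (2.91%), which include 27 of the rises and 14 of the falls, and for 580 with the offset. Some genes that differed from sgAAVS1 cells lie in 2 stretches of chromosome, and the cause was not tested. Of the 11428 tested genes, 250 lie beyond SPOP toward the 17q end. Their Dox median was −0.173 in sgAAVS1 and 0.012 in sgIGF2BP3 cells. The effect was more positive than in sgAAVS1 cells for 92 of the 250, beside 4.53% of all genes. Of the 41 rises with a more positive effect than in sgAAVS1 cells, 7 lie in that stretch, including ACTG1 and FDXR. Of the 43 falls with a more negative effect than in sgAAVS1 cells, 8 lie between the 7p end and IGF2BP3, which holds 0.7% of tested genes.

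Few genes differed from both other lines in the direction in which they changed here. Besides IGF2BP3, the rule named the rises ACTG1 and TEAD2 and the falls HDAC9, SNX13, FEZ2 and TM4SF1. TM4SF1, a tetraspanin-like surface protein, was at 362, 349, 355 and 357 CPM with DMSO and at 321, 314, 310 and 307 CPM with Dox. It fell by 0.19 (SE 0.036, edgeR adjusted p = 0.000753), the groups did not overlap, and its effect differed by −0.16 from sgAAVS1 and by −0.26 from sgIGF2BP2 cells (edgeR adjusted p = 0.0374 and 0.00108). TEAD2, a partner of YAP (0.21), and FEZ2 (−0.14) lost their calls in 8 and 9 of 18 alternatives. IGF2BP3 itself differed by −1.73 and −1.44.

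The siRNA pool lowered the same mRNA in the same cells by a larger amount, with 24.7 ± 1.56 CPM of IGF2BP3 left (SD, n = 4) against 170 ± 4.78 CPM with siControl. Of 11428 genes, 267 (2.34%) were called after siIGF2BP3. Of the 187 rises, 9 (4.81%, and 8.41% of the 107 siRNA rises), and of the 115 falls, 8 (6.96%, and 5.0% of the 160 siRNA falls) were called in the same direction. In the opposite direction 4 of the rises and 1 of the falls were called, among them IL11 (0.29 with knockout and −0.47 with siRNA, edgeR adjusted p = 0.00231). Without Dox replicate 4, 7 of 79 rises (8.86%, and 6.54% of the 107) and 4 of 29 falls (13.8%, and 2.5% of the 160) were shared, and 3 rises and 1 fall were opposite. The rises named by rule were CALD1 (0.54 with knockout and 0.31 with siRNA), C6orf141 (0.35 and 0.30), NES, the intermediate filament nestin (0.26 and 0.29), IER5L (1.08 and 0.25) and RPS27L (0.25 and 0.23). Besides IGF2BP3, the falls were RAB3IP, an exchange factor for Rab GTPases (−0.23 and −0.19), the ubiquitin-conjugating enzymes UBE2V2 (−0.22 and −0.22) and UBE2G1 (−0.22 and −0.18), and PAQR3 (−0.22 and −0.23). NES was at 42.6, 44.9, 43.6 and 45.0 CPM with DMSO and at 50.7, 50.0, 53 and 57.3 CPM with Dox. The groups did not overlap, and without Dox replicate 4, the highest library, the NES call was lost, as were those of UBE2V2, UBE2G1 and PAQR3, and the PAQR3 call was lost in 10 of 18 alternatives. CALD1 kept its knockout call in all 18 alternatives.

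The knockout and siRNA effects differed for 155 genes (1.36%), 101 more positive with knockout (0.884%) and 54 more negative (0.473%). Among them were 39 of the 187 rises, each more positive with knockout, and 13 of the 115 falls. TP53INP1 differed by 0.94 (edgeR adjusted p = 0.000131), IER5L by 0.83 (edgeR adjusted p = 3.28e-10), TAGLN by 0.77 (edgeR adjusted p = 3.63e-06) and BTG2 by 0.60 (edgeR adjusted p = 0.000416). IGF2BP3 lay 1.1 higher with knockout (edgeR adjusted p = 2.76e-20). Time, agent and the presence of induced Cas9 differ between the 2 treatments and cannot be told apart.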

How the data were processed

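Poly(A) RNA was sequenced from directional libraries, per the labels' protocols. The submitters' processing notes name bcl2fastq 2.20.0.422, STAR 2.7.5c and hg38. The counting tool, annotation and use of strand are not given in the sources used here. The authors deposited whole-number read counts per gene, not normalized, for 19962 genes in 40 libraries. Symbols matched 19895 identifiers, and coordinates and transcript sequences came from GENCODE release 29 (GRCh38). Of 74 named genes, 12 share exon bases with a gene on the opposite strand.

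From these counts, edgeR 4.0.16 (R 4.3.3; filterByExpr, TMM, glmQLFit and glmQLFTest) was fitted to all 40 libraries with a coefficient per group and Benjamini-Hochberg adjustment over the 11428 genes kept. The standard error is the log2 fold change divided by the square root of F. The biological coefficient of variation was 3.79%. The procedure was tested on simulated counts. Alternatives included DESeq2 1.42.0, other filters, thinning, a GC and length offset and leaving out each library.

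The members and lists were chosen with earlier results of these data known. Named genes were the 12 greatest called rises and falls with no overlap between groups and a mean log2 CPM of at least 2, the IGF2BP genes, up to 3 called members per list (or the most abundant member where none was called), up to 5 per direction that differed likewise from both other lines or were shared with siIGF2BP3, and the 3 nearest tested genes on each side of IGF2BP3. Other list members called are given as values only, and some list members are not reported here. Between replicates within the sgIGF2BP3 DMSO and Dox groups the mean chi-square per gene was 1.51 to 3.07, so none was a copy of another. Other pairs of libraries were not compared in this way.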

Additional observations from a re-analysis of the deposited data

Results flagged for a closer look

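In 9 of 146 groups of 4 libraries, the highest or lowest library of a named gene lay far from the other 3, by Dixon's gap test at its 95% critical value. Chance alone flags about 1 in 20 such groups. Among DMSO libraries these were CELSR3 at 3.45 CPM and HDAC9 at 16.5 CPM in replicate 1, CCDC126 at 1.94 CPM in replicate 2, and ECT2 at 80.5 and SYNCRIP at 152 CPM in replicate 4. Among Dox libraries they were MYOF at 7.45 and SHMT2, an enzyme of serine metabolism, at 451 CPM in replicate 4, MALSU1 at 38.1 CPM in replicate 1 and NUP42 at 16.1 CPM in replicate 2.

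The Dox effect of 46 pairs of a named gene and another line differed from that in sgIGF2BP3 cells by edgeR's interaction test, as log2 differences. Against sgAAVS1 cells, IGF2BP3 differed by −1.73, HDAC9 by −0.84, FAM221A by −0.76, TMEM106B by −0.57, SNX13 by −0.49, IL11 by −0.48, MAGOHB by −0.45, MZT1 by −0.38, ANKMY2 by −0.33 and IDI1 by −0.32. Smaller negative differences were those of UBE2G1 (−0.26), CALD1 (−0.25), NDRG1 (−0.24), G3BP2 (−0.22), CCN1 (−0.21), FEZ2 (−0.21) and TM4SF1 (−0.16). PLAU differed by 0.82, DUSP1 by 0.79, FOXD1 by 0.75, C6orf141 by 0.58, KLF6 by 0.51, ACTG1 by 0.33, TEAD2 by 0.28, RAB3IP by 0.25 and SHMT2 by 0.18. RAB3IP fell in both lines and less in sgIGF2BP3 cells.

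Against sgIGF2BP2 cells, IGF2BP3 differed by −1.44, HDAC9 by −0.92, BBC3 by −0.60, BTG2 by −0.60, RPS27L by −0.49, IL11 by −0.43, SNX13 by −0.39, CCN1 by −0.38, TM4SF1 by −0.26, TNFRSF10B by −0.19 and FEZ2 by −0.19. IGF2BP2, the gene cut in that line, differed by 1.39, TAGLN by 0.68, TEAD2 by 0.33, NES by 0.29, CALD1 by 0.27, SHMT2 by 0.27, ACTG1 by 0.24, RAB3IP by 0.22 and RRM2 by 0.15.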

How the results depend on the processing

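No called result changed direction in any alternative. For Dox against DMSO in sgIGF2BP3 cells (302 genes called), the fit to its 8 libraries alone called 477, the test against a 1.2-fold change called 8, and leaving out 1 library gave 108 to 285. For the difference from sgAAVS1 cells (889), the GC and length offset gave 378, the 1.2-fold test 7, and leaving out 1 library 428 to 1415. For the difference from sgIGF2BP2 cells (333), these were 580, 6, and 262 to 372. For siIGF2BP3 (267) they were 403, 16, and 179 to 222, and for the difference of knockout and siRNA (155) the 1.2-fold test gave 18 and leaving out 1 library 108 to 157. The cause was not tested for the counts that moved, other than that the 1.2-fold test asks for more by its construction. DESeq2 called 345 for the first comparison, RLE size factors 308 and counts thinned to the smallest total 206. With the replicate block the first comparison called 342 genes in 40 libraries and 306 in 8. Deviations of same-numbered DMSO and Dox libraries of sgIGF2BP3 cells correlated at −0.02, −0.015, −0.016 and −0.088, and the main fit used no block. That check covers these 8 libraries only and cannot exclude a batch shared by replicate number in the series. Over the named genes and alternatives, 1051 values kept their side of the threshold, 246 lost the call and 9 gained one. A change above its standard error was not always called. CALR, at 0.083 (SE 0.031), had an edgeR adjusted p of 0.132. Small differences may have gone undetected at this depth.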
